A study of Mus musculus with 16 samples.

Results

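A set of 9 tight junction genes, of 32989 genes in the count table, were followed through mouse hair follicle stem cell (HFSC) organoids: the claudins Cldn1, Cldn4, Cldn7, Cldn8 and Cldn12, occludin (Ocln), and the cytoplasmic plaque proteins Tjp1, Tjp3 and Cgn. They were taken as a fixed list of symbols, chosen with earlier results of these data known. The symbols were matched to the identifiers of the table, and all 9 had a row. Organoids were grown from epidermal cells of 4 C57BL/6J mice with no engineered allele, isolated in telogen, the resting phase of the hair cycle. They were kept in 3D–3C culture for 2 weeks and received either no addition or, for 72 h, N1-acetylspermidine, a polyamine carrying an acetyl group (N1-AcSpd). Each culture was sorted for α6 integrin and CD34 into progenitors (α6+/CD34−) and HFSCs (α6+/CD34+), so that each mouse gave 1 library to each of the 4 groups, 16 in all. The methods give 2 windows of postnatal age for such mice, of both sexes, without tying either to an animal, and the organoids start from epidermal cells alone. Transcripts were counted from their 3′ ends with unique molecular identifiers (UMIs), so that each molecule gives 1 tag regardless of transcript length. Levels of different genes can therefore be set side by side as counts per 1000000 tags (CPM), using library totals adjusted by TMM.

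Tight junctions seal the space between neighbouring epithelial cells. Claudins form the strands that close or selectively open the paracellular path, occludin and tricellulin are tetraspan proteins of the same strands, and the ZO proteins (Tjp1 and Tjp3 among them) and cingulin (Cgn) tie the strands to the actin cytoskeleton. In skin, functional tight junctions lie in the granular layer, above the basal layer that carries α6 integrin, and loss of claudin-1 in mice is lethal through water loss.

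The libraries held 15480075 to 29074855 UMIs, and 3 of the 4 untreated CD34− libraries and all N1-AcSpd CD34− libraries were deeper than every untreated CD34+ library. HFSC markers followed the sort labels: 6 of 7 were higher in CD34+ cells in both conditions (edgeR adjusted p), with Cd34 itself higher by 3.97 on the log2 scale in untreated cells (adjusted p 1.59e-10). Lgr5 was the exception, at 0.12 (SE 0.84). Basal keratinocyte markers summed to between 6150 and 7359 CPM in all 16 libraries. Markers of suprabasal keratinocytes separated the sorted populations: all 11 were lower in CD34+ cells in both conditions, and their summed level was 1056 to 1423 CPM in untreated CD34− against 301 to 326 CPM in untreated CD34+ libraries, and 1275 to 1621 against 315 to 409 CPM after N1-AcSpd. Among the suprabasal markers, Sbsn had counts within 0.254% of those of Tmem147os and Tgm1 within 0.475% of those of Gm49067, so their tags are uncertain. Melanocyte markers summed to at most 12.6 CPM, fibroblast markers to at most 1.52 and immune markers to at most 2.08. Most of the melanocyte sum was Pmel, with group means of 9.87 to 10.6 CPM. Pmel is uncertain, since Dgka and Cdk2 overlap it on the opposite strand and held 6189 and 2302 UMIs against its 3453. Sox10 and Cd207 had no row in the count table. The endothelial markers Cdh5 and Emcn had no row either. Pecam1 had counts within 1.51% of those of Phkg1 on another chromosome. Without Pecam1 the endothelial list summed to at most 0.924 CPM.

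Of the 9 members, 7 averaged at least 5 counts over the 16 libraries and entered the test. Sequences of the promoters are shown for 4 of them, chosen because Cldn1, Cldn4 and Ocln had the largest cell type differences of the strand proteins and Tjp3 passed in no comparison. Each run is the 250 bases before the most upstream RefSeq start on GRCm38.p6, read 5′ to 3′ on the minus strand on which all 4 genes lie. Capitals mark matches, on either strand, to TGANTCA (the AP-1 site) or CAGGTG (the E-box bound by Snail and Zeb factors).
Cldn1 (chr16:26371840-26372089): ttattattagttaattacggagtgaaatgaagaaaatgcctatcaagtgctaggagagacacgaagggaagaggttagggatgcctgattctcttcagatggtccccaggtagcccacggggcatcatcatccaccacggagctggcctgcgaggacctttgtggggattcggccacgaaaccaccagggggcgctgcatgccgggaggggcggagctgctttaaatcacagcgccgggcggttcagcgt
Cldn4 (chr5:134946935-134947184): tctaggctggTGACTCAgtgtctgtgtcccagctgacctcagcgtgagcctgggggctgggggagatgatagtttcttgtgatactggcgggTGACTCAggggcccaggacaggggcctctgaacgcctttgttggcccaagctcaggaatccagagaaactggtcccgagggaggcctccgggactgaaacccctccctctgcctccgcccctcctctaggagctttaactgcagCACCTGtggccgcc
Ocln (chr13:100552719-100552968): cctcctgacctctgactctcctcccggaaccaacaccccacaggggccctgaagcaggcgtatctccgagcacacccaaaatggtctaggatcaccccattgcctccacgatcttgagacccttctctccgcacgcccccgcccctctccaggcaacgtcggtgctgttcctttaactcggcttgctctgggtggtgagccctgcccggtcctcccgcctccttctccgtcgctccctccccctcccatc
Tjp3 (chr10:81291582-81291831): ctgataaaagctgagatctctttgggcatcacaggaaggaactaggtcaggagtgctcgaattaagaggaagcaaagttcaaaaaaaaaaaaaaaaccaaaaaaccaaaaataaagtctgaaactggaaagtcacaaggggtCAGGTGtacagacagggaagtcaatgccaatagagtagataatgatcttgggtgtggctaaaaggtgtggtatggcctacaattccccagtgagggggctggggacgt

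The Cldn4 window held 2 AP-1 matches, which begin 240 and 158 bases before the start, and 1 E-box match on the opposite strand 14 bases before it. The Tjp3 window held 1 E-box match, 108 bases before the start, and the Cldn1 and Ocln windows held neither motif. AP-1 matches occurred in 6.85% and E-box matches in 17.1% of the 27025 RefSeq promoter windows of this length. Among all 8 members with a promoter in the table (Cldn8 has none), Cldn4 alone matched TGANTCA. The Grainyhead site AACCGGTT matched none of the 8, and 0.126% of all windows. GC boxes (GGGCGG, in 33.0% of all windows) were found at 2 places in Cldn1 and in Tjp1, at 1 in Cldn4 and in Ocln and at 6 in Cgn, whose window was 70.4% G or C. The Tjp1 window, at 65371245 to 65371494, lies inside the gene as placed on the minus strand at 65296165 to 65527781. It thus precedes an internal start. CCAAT (34.5% of windows) was found in Tjp3 and Cgn, and TATAAA (13.0%) in no member. No matches overlapped in the 4 windows shown.

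The first comparison asked how the junction genes differ between HFSCs and their progenitors without supplementation. Cldn1, Cldn4, Ocln, Tjp1 and Cgn were lower in CD34+ HFSCs, Cldn12 and Tjp3 did not pass the test, and no member was higher. The 5 called of 7 tested stand beside a background of 16.1% of the 19049 tested genes called lower and 16.1% called higher (edgeR quasi-likelihood test, Benjamini-Hochberg adjusted p under 0.05). Since the list was chosen with earlier results of these data known, this comparison is a description. The median log2 fold change was −0.95 over the 7 members and 0.022 over all tested genes. In these 5, picked because they were called, the ranges of the 2 groups did not overlap and each of 4 mice showed the lower value in CD34+ cells. How many of all tested genes separate in this way was not computed. The 11 suprabasal markers moved in the same direction, with a median of −1.82, and their part in these differences was not tested. In sorted bulk samples, fewer cells of one kind and less RNA per cell cannot be told apart.

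Cldn1 (ENSMUSG00000022512, chromosome 16, 26356642 to 26371841 on the minus strand of GRCm38), the main barrier claudin of epidermis, had the highest mean of the members in 3 of 4 groups; in N1-AcSpd HFSCs it was at 5.75 CPM beside 6.04 CPM for Cldn12. In untreated CD34− progenitors mice 1 to 4 had 16.7, 17.3, 19.8 and 20.7 CPM, and in untreated CD34+ HFSCs 7.68, 6.58, 6.72 and 6.37 CPM. The lowest progenitor library was thus above 2 times the highest HFSC library. The log2 fold change was −1.45 (SE 0.075, edgeR adjusted p 5.84e-08), and the means differed 2.73-fold.

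Cldn4 (ENSMUSG00000047501, chromosome 5, 134945119 to 134946934, minus strand), a sealing claudin found in many epithelia, showed the largest difference of the members. It measured 7.39, 4.92, 9.83 and 7.71 CPM in the progenitors of mice 1 to 4 and 1.36, 1.59, 2.00 and 1.34 CPM in their HFSCs. The log2 fold change was −2.24 (SE 0.28, edgeR adjusted p 3.42e-05), with means 4.74-fold apart. Cldn4 also varied more between animals than Cldn1: its coefficient of variation in untreated progenitors was 27.0%, where counting alone gives 7.86%, against 10.4% and 5.04% for Cldn1.

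Cldn12 (ENSMUSG00000046798, chromosome 5, 5489537 to 5514958, minus strand) belongs to the claudins without the C-terminal motif that binds ZO proteins. Its levels were 7.05, 7.73, 8.05 and 7.58 CPM in progenitors and 5.46, 7.18, 6.34 and 6.98 CPM in HFSCs. The groups overlapped, although each mouse had the lower value in HFSCs, and the log2 fold change of −0.23 (SE 0.094) had an edgeR adjusted p of 0.0817. With mouse as a block the adjusted p was 0.0387, at the same log2 fold change of −0.23.

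The make-up of the 3 abundant claudins therefore differed between the sorted populations. Of the summed Cldn1, Cldn4 and Cldn12 tags, Cldn12 made up 21.0 to 25.8% in untreated progenitors and 37.6 to 47.6% in untreated HFSCs. Cldn4 made up 16.4 to 26.1% and 9.09 to 13.3%. Their summed level was 33.7 ± 3.72 CPM in progenitors and 14.9 ± 0.38 CPM in HFSCs (SD, n = 4). These shares are given as a description, with no test.

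Cldn8 and Cldn7 were close to the limit of detection. Cldn8 (ENSMUSG00000050520, chromosome 16, 88560828 to 88563183, minus strand), known from the distal nephron, gave 55 UMIs in all, at least 1 in every library. Pooled over 4 libraries it was at 0.0831 CPM in untreated progenitors (95% exact Poisson interval 0.0334 to 0.171) and 0.217 CPM in untreated HFSCs (0.124 to 0.352). After N1-AcSpd it was at 0.0970 CPM (0.0465 to 0.178) and 0.283 CPM (0.177 to 0.428). It was the only member with higher values in CD34+ cells. In a fit with no filter on low counts its log2 fold change was 1.32 in untreated cells (edgeR adjusted p 0.184) and 1.55 in N1-AcSpd cells (adjusted p 0.0902), neither of which passed. Cldn7 (ENSMUSG00000018569, chromosome 11, 69964779 to 69967885, plus strand) gave 3 UMIs, 1 in untreated progenitors and 2 in N1-AcSpd progenitors. No tag was found in either group of HFSC libraries, which allows up to 0.0407 CPM in untreated and 0.0385 CPM in N1-AcSpd HFSCs (3 counts over the group). These intervals and limits cover counting error only.

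**Figure D1:**
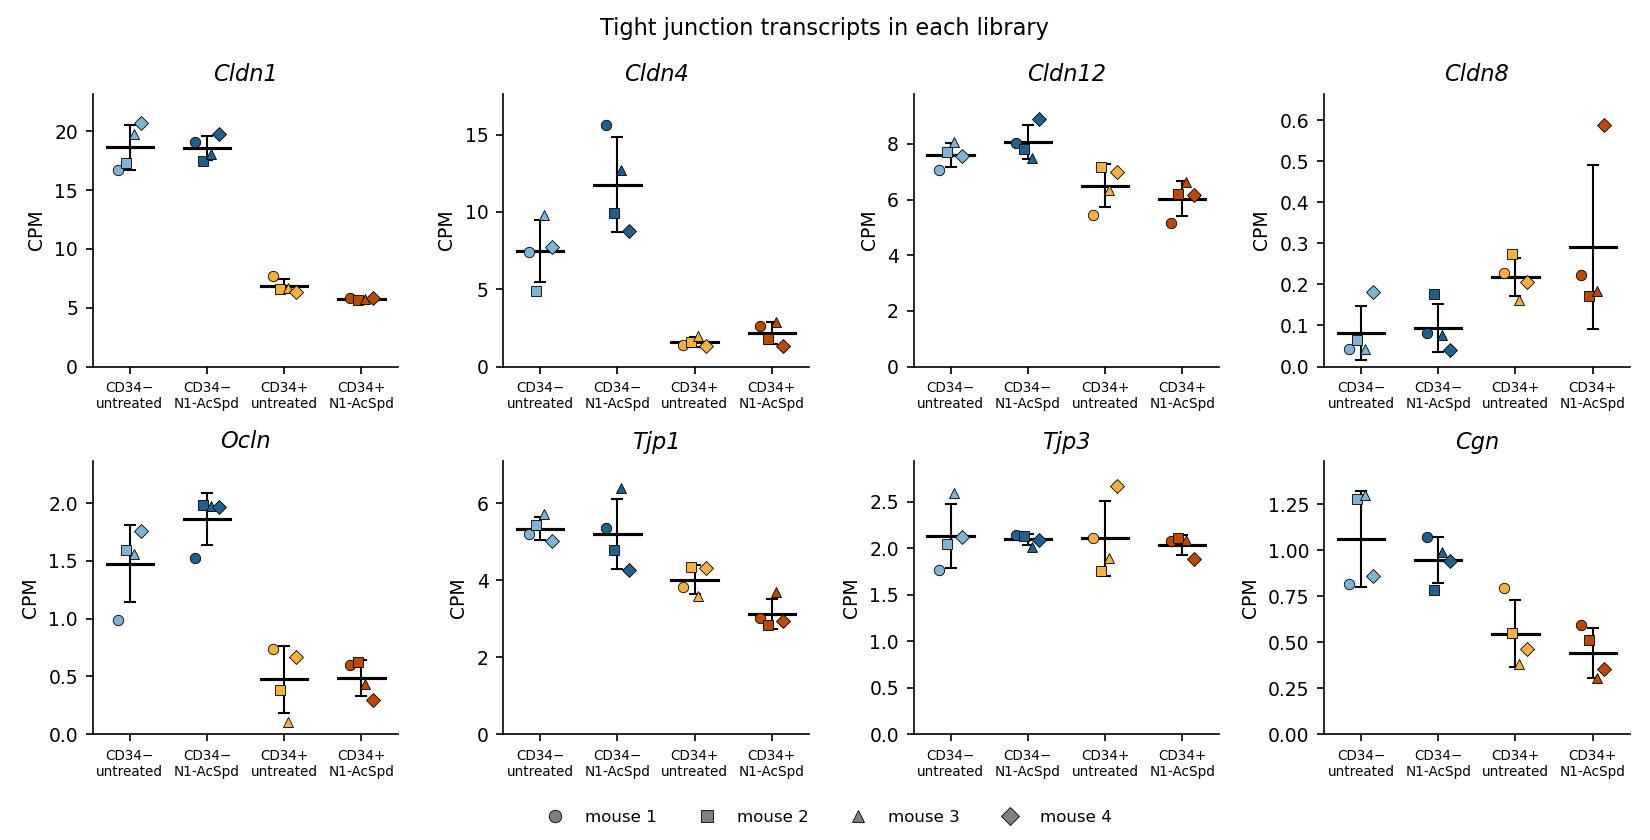
CPM of 8 members in each of the 16 libraries (vertical axes linear, from 0), grouped by sorted population and treatment, with a symbol for each mouse, a bar for the mean and whiskers for the SD (n = 4). Cldn1, Cldn4 and Ocln lie lower in every CD34+ library than in any CD34− library, Tjp3 stays between 1.75 and 2.67 CPM throughout, and Cldn8 reaches 0.587 CPM in 1 CD34+ library.

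Ocln (ENSMUSG00000021638, chromosome 13, 100496507 to 100552718, minus strand) encodes occludin, the first integral protein found in tight junctions. It was rarer than the main claudins, at 0.989, 1.60, 1.56 and 1.76 CPM in untreated progenitors and 0.739, 0.384, 0.108 and 0.668 CPM in untreated HFSCs. The HFSC values rest on 2 to 13 UMIs a library, and that of mouse 3 on the fewest. The log2 fold change was −1.62 (SE 0.41, edgeR adjusted p 0.00729). Without mouse 2 the adjusted p was 0.0700.

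The 3 plaque genes had log2 fold changes from −0.95 to −0.016. Tjp1 (ENSMUSG00000030516, chromosome 7, 65296165 to 65527781, minus strand) encodes ZO-1, the scaffold that binds claudins, occludin and actin. It measured 5.20, 5.43, 5.71 and 5.01 CPM in progenitors and 3.81, 4.33, 3.58 and 4.31 CPM in HFSCs. This is a difference of −0.41 in log2 (SE 0.12, edgeR adjusted p 0.0168). The call was lost without mouse 1 (adjusted p 0.104), without mouse 2 (0.0590) and with library totals for scaling (−0.30, adjusted p 0.0765).

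Cgn (ENSMUSG00000068876, chromosome 3, 94760069 to 94786492, minus strand) encodes cingulin, which links the plaque to the actomyosin cytoskeleton. Its progenitor libraries had 0.817, 1.28, 1.30 and 0.857 CPM and its HFSC libraries 0.796, 0.548, 0.379 and 0.462 CPM. In mouse 1 both cell types had nearly the same level. The log2 fold change was −0.95 (SE 0.28, edgeR adjusted p 0.0169). The adjusted p was 0.110 without mouse 2, 0.135 without mouse 3, 0.0717 without mouse 4, 0.0544 without the untreated progenitor library of mouse 3, and 0.0504 when only the compared groups were fitted.

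Tjp3 (ENSMUSG00000034917, chromosome 10, 81273207 to 81291581, minus strand) encodes ZO-3, the ZO protein restricted to epithelia. It stood at 2.13 ± 0.35 CPM in progenitors and 2.11 ± 0.40 CPM in HFSCs (SD, n = 4), higher in HFSCs in 2 mice and lower in 2. The log2 fold change was −0.016, with an interval of 2 SE from −0.29 to 0.25 (edgeR adjusted p 0.967), so that a difference the size of that of Cldn1 lay outside it. Tjp3 overlaps Apba3 on the opposite strand, which held 4066 UMIs against 711 for Tjp3, and which of the tags could have come from either gene was not tested. Without mouse 2 only Cldn1 and Cldn4 remained called among the 7 members in untreated cells.

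Within untreated progenitors the order of mean levels was Cldn1, Cldn12, Cldn4, Tjp1, Tjp3, Ocln, Cgn, Cldn8 and Cldn7. Cldn4 overlapped its neighbours Cldn12 and Tjp1 in range, and Ocln overlapped Cgn. In untreated HFSCs Cldn12 stood beside Cldn1 (6.49 ± 0.78 and 6.84 ± 0.58 CPM, overlapping ranges), Tjp1 came next at 4.01 ± 0.38 CPM, and Cldn4 stood beside Tjp3 (1.57 ± 0.31 and 2.11 ± 0.40 CPM, overlapping ranges). Cgn and Ocln, at 0.546 ± 0.18 and 0.475 ± 0.29 CPM, overlapped as well.

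After N1-AcSpd, 6 of 7 members were called lower in CD34+ HFSCs and none higher, where 16.8% of all tested genes were called lower and 16.5% higher. The median log2 fold change of the members was −1.08, beside −0.0068 over all tested genes and −2.14 over the 11 suprabasal markers, whose part in these differences was not tested. Cldn12 joined the called members: its levels were 8.04, 7.80, 7.49 and 8.90 CPM in N1-AcSpd progenitors and 5.16, 6.20, 6.62 and 6.16 CPM in N1-AcSpd HFSCs, with no overlap and a log2 difference of −0.42 (SE 0.093, edgeR adjusted p 0.00315). Cldn1 measured 19.1, 17.5, 18.1 and 19.8 CPM in the progenitors and 5.87, 5.63, 5.70 and 5.81 CPM in the HFSCs of mice 1 to 4. Its log2 fold change was −1.69 (SE 0.075, edgeR adjusted p 1.18e-08).

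Cldn4 measured 15.6, 9.93, 12.7 and 8.77 CPM in N1-AcSpd progenitors and 2.64, 1.76, 2.88 and 1.35 CPM in N1-AcSpd HFSCs. The fitted difference was 5.42-fold, a log2 difference of −2.44 (SE 0.27, edgeR adjusted p 1.16e-05). Ocln measured 1.53, 1.99, 1.98 and 1.97 CPM against 0.594, 0.626, 0.429 and 0.293 CPM (log2 fold change −1.92, SE 0.40, edgeR adjusted p 0.0021). Both strand proteins again separated the populations with no overlap.

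Among plaque proteins, Tjp1 was at 5.36, 4.79, 6.38 and 4.26 CPM in N1-AcSpd progenitors and 3.01, 2.84, 3.68 and 2.93 CPM in N1-AcSpd HFSCs. Its log2 fold change was −0.74 (SE 0.12, edgeR adjusted p 0.000298). Cgn was at 1.07, 0.780, 0.988 and 0.943 CPM against 0.594, 0.512, 0.307 and 0.352 CPM (log2 fold change −1.08, SE 0.28, edgeR adjusted p 0.00791), and its adjusted p was 0.0517 without mouse 3 and 0.0639 without mouse 4. Tjp3 was at 2.09 ± 0.058 and 2.04 ± 0.11 CPM, a log2 fold change of −0.040 with an interval of 2 SE from −0.31 to 0.23.

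**Figure D2:**
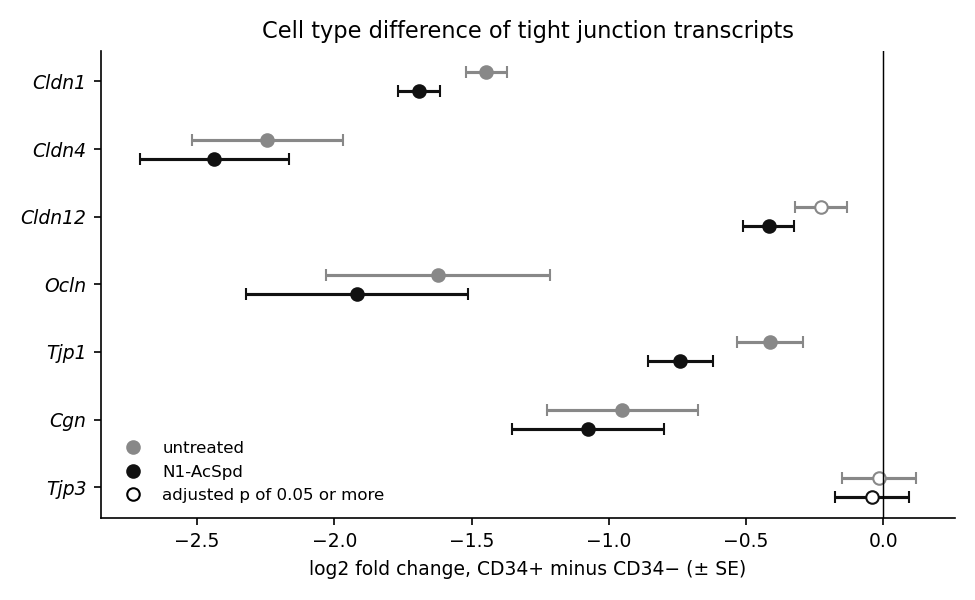
Log2 fold change between CD34+ HFSCs and CD34− progenitors for the 7 tested members (horizontal axis, whiskers ± SE of the edgeR fit), in untreated cells (grey) and N1-AcSpd cells (black), with filled points for adjusted p under 0.05. Cldn4 lies farthest to the left at −2.24 and −2.44, Tjp3 lies at 0, and Cldn12 is filled in N1-AcSpd cells alone.

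By likeness of pattern, the 3 genes nearest to Cldn4 over the 16 libraries, among 9363 named genes averaging at least 50 counts, were Sprr2e, Sprr1b and Metrnl. Each gene was centred on its mean log2 CPM, and the root mean square differences from Cldn4 were 0.208, 0.253 and 0.256. Sprr2e and Sprr1b encode small proline-rich proteins of the cornified envelope. The points share their libraries and depth, and the measure is a description.

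The treatment comparisons asked whether 72 h of N1-AcSpd changed the junction genes within each sorted population. No member passed the test in either. In CD34− progenitors 0 of 7 members were called, where 0.373% of all tested genes were called higher and 0.241% lower. 1 member had an unadjusted p under 0.05, as had 2593 of all 19049 tested genes. DESeq2 also called 0 members, and 558 genes in all. In CD34+ HFSCs 0 of 7 were called, where 0.189% were called higher and 0.136% lower. 2 members had an unadjusted p under 0.05, as had 2505 of all 19049 tested genes. DESeq2 again called 0 members, and 423 genes in all.

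The member with the largest treatment difference was Cldn4, whose mean was 7.46 ± 2.01 CPM in untreated and 11.8 ± 3.07 CPM in N1-AcSpd progenitors (SD, n = 4). The value was higher in 4 of 4 mice, by between 0.18 and 1.07 on the log2 scale, but the groups overlapped and the log2 fold change of 0.65 (SE 0.25, p 0.0216) had an edgeR adjusted p of 0.271. In HFSCs it was higher in 4 of 4 mice too, by between 0.015 and 0.90, with a log2 difference of 0.46 (SE 0.28, edgeR adjusted p 0.525). The summed suprabasal markers were higher after N1-AcSpd in 3 of 4 mice in progenitors and 4 of 4 in HFSCs, and their part in the Cldn4 values was not tested.

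Cldn1 went the other way in HFSCs. Its 4 N1-AcSpd HFSC libraries, at 5.63 to 5.87 CPM, lay below the 4 untreated ones, at 6.37 to 7.68 CPM, and it was lower in 4 of 4 mice (log2 fold change −0.25, SE 0.075, p 0.00969, edgeR adjusted p 0.228). In progenitors the corresponding value was −0.0033 (SE 0.073), with 2 mice higher and 2 lower. Tjp1 was at 4.01 ± 0.38 CPM in untreated and 3.12 ± 0.38 CPM in N1-AcSpd HFSCs, lower in 3 of 4 mice (log2 fold change −0.36, SE 0.12, p 0.0098, edgeR adjusted p 0.228). In progenitors it was at −0.037 (SE 0.12). None of these values passed the correction over all genes.

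For Cldn12 the treatment log2 fold change was 0.084 (SE 0.093) in progenitors and −0.11 (SE 0.094) in HFSCs, and for Tjp3 −0.025 (SE 0.13) and −0.049 (SE 0.14). Ocln was higher in 4 of 4 mice in progenitors, at 0.34 (SE 0.38), and split between mice in HFSCs, at 0.042 (SE 0.42). Cgn was at −0.16 (SE 0.27) and, lower in 4 of 4 mice, at −0.29 (SE 0.28). Intervals of 2 SE ran from −0.10 to 0.27 for Cldn12 in progenitors and from −0.42 to 1.10 for Ocln.

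**Figure D3:**
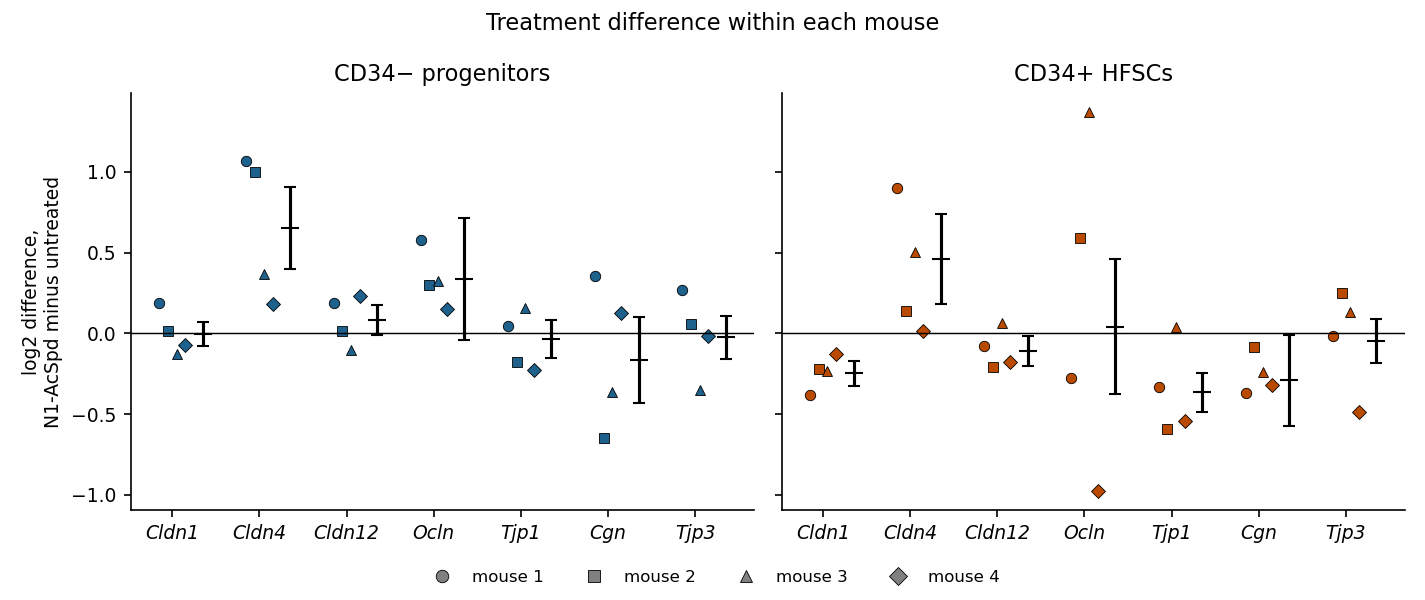
Log2 difference between N1-AcSpd and untreated libraries of the same mouse (vertical axis, prior count of 2) for the 7 tested members, in CD34− progenitors (left) and CD34+ HFSCs (right), with the edgeR log2 fold change ± SE as a black dash beside the symbols. Cldn4 lies above 0 in 4 of 4 mice in both panels, Cldn1 lies below 0 in 4 of 4 mice in HFSCs, and the Ocln symbols in HFSCs spread from −0.97 to 1.37.

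Since Cldn4 and Cldn1 were read in the same libraries, their ratio does not depend on scaling. In untreated progenitors of mice 1 to 4 there were 0.442, 0.284, 0.497 and 0.372 Cldn4 tags per Cldn1 tag, and 0.820, 0.568, 0.704 and 0.444 after N1-AcSpd. In HFSCs the ratio was 0.178, 0.242, 0.298 and 0.210 untreated and 0.449, 0.313, 0.505 and 0.232 after N1-AcSpd. The ratio was thus higher after N1-AcSpd in 4 of 4 mice in both populations, with overlapping groups, and lower in HFSCs than in progenitors of the same mouse in 4 of 4 mice in both conditions. Two-sided exact permutation tests over libraries gave p = 0.0571 for treatment in progenitors and p = 0.0857 in HFSCs, and p = 0.0571 and p = 0.0857 for the cell types in untreated and N1-AcSpd cells. Permuting within mice instead, in a setting added after the data were seen, gave an exact p of 0.125 in each of the 4 comparisons, which is the smallest that 4 pairs allow. Over libraries, all 4 came to 0.0857 after Benjamini-Hochberg adjustment over the 4 tests, and 4 against 4 libraries cannot go below 0.0286. The ratio was chosen after the values were seen.

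**Figure D4:**
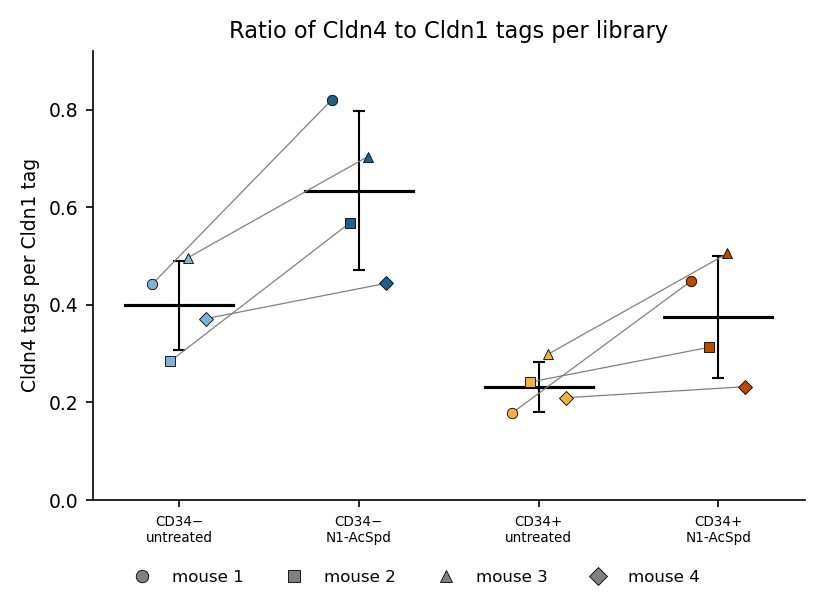
Cldn4 tags per Cldn1 tag in each library (vertical axis linear, from 0), with a symbol for each mouse, grey lines joining the untreated and N1-AcSpd library of a mouse, and mean ± SD (n = 4). Every line rises, and the group means go from 0.399 to 0.634 in progenitors and from 0.232 to 0.375 in HFSCs.

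The interaction asked whether the cell type difference itself changed with N1-AcSpd. edgeR called 0 of 19049 genes (0%) and 0 of the 7 members, with 799 genes, Cldn1 among them, at an unadjusted p under 0.05, whereas DESeq2 called 72 genes and 0 members. The difference between the cell type effects was below 0 for all 7 members, between −0.33 for Tjp1 (SE 0.17) and −0.024 for Tjp3 (SE 0.19), with Cldn1 at −0.24 (SE 0.10, p 0.0343, edgeR adjusted p 1.00). The median over all tested genes was −0.0076, and the share of them below 0 was not computed. Mice disagreed in direction for Cldn4, Cldn12, Ocln, Tjp3 and Cgn, so a shared direction of the members is not shown. The call of Cldn12 in N1-AcSpd but not in untreated cells is thus not shown to be a difference between conditions (−0.19, SE 0.13, edgeR adjusted p 1.00).

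The wider junction was described by 85 further genes, of which 70 were in the table and 54 were tested. In untreated cells 25 were called lower and 9 higher in CD34+ HFSCs, with a median log2 fold change of −0.21. Over all tested genes 16.1% were called lower there and 16.1% higher. In N1-AcSpd cells 26 were called lower and 8 higher, with a median of −0.23, beside 16.8% and 16.5% of all tested genes. The share called higher was thus near that of all genes in both conditions. The same backgrounds apply to the counts of each list below. Of the 20 other claudins 8 were in the table, and 12 had no row there and were not analysed here. Only Cldn34c1 of these reached a mean count of 5, and it was not called (0.67, SE 0.48, edgeR adjusted p 0.340 in untreated cells, and 1.19, SE 0.51, adjusted p 0.0922 in N1-AcSpd cells). The rest were too low to be tested. Among them Cldn3, named here after its values were seen, gave 18 UMIs in each group of progenitors, 0 in untreated and 2 in N1-AcSpd HFSCs. Cldn3 is uncertain, since Wbscr25 overlaps it on the opposite strand and held 507 UMIs against its 38.

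**Figure D5:**
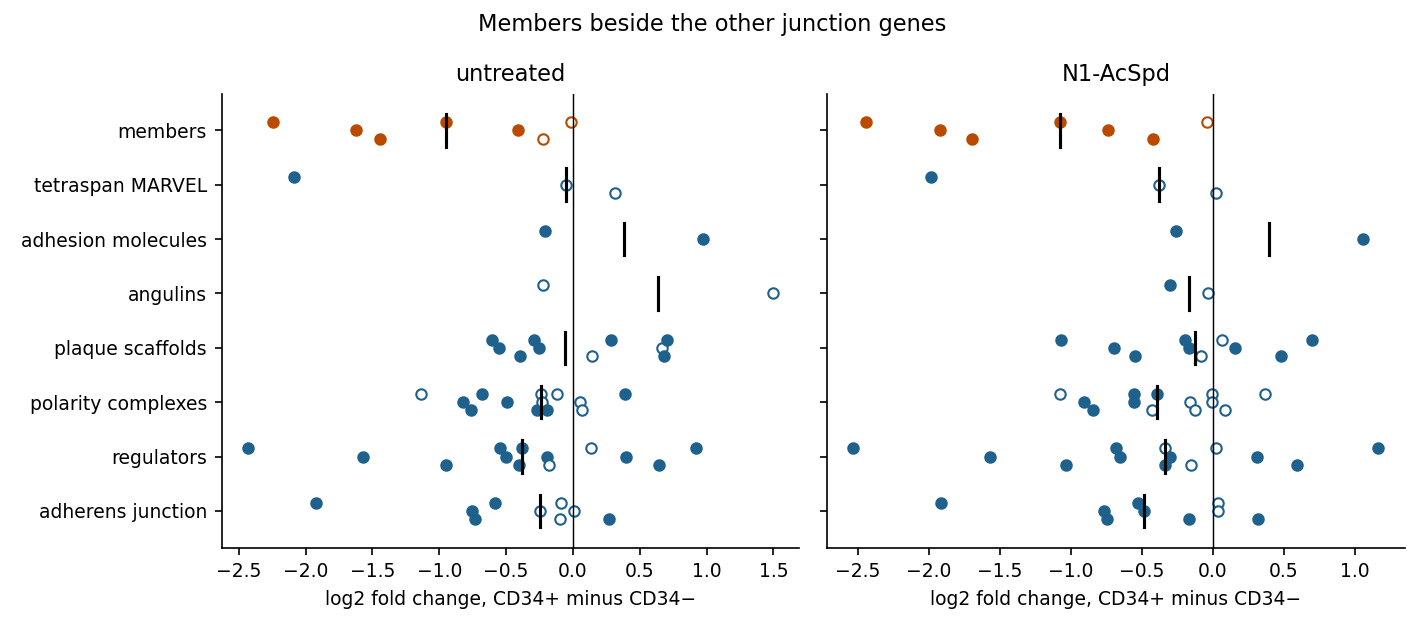
Log2 fold change between CD34+ HFSCs and CD34− progenitors (horizontal axis) for the tested members (orange) and the other tested junction genes by list (blue, without Cldn34c1 and Cldnd1), in untreated cells (left) and N1-AcSpd cells (right), with filled points for adjusted p under 0.05 and a black dash for each list's median. The members' medians lie at −0.95 and −1.08, and called genes lie on both sides of 0 among adhesion molecules, plaque scaffolds and regulators.

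Among partners of the strands, Marveld2, which encodes tricellulin of three-cell contacts, was lower in HFSCs like Ocln, at 0.231 against 0.998 CPM in untreated cells (log2 fold change −2.08, SE 0.44, edgeR adjusted p 0.00243) and by −1.98 in N1-AcSpd cells (adjusted p 0.00247). It was the 1 called of 3 tested tetraspan relatives. F11r, the adhesion molecule JAM-A, was lower by −0.21 and −0.26 (edgeR adjusted p 0.0104 and 0.00195), although with library totals for scaling neither passed, and the untreated call was lost without mouse 1 (0.0558) or mouse 2 (0.0527). Cxadr, an immunoglobulin-type adhesion protein of junctions, was higher, at 54.6 against 27.8 CPM in untreated cells (0.97, SE 0.078, edgeR adjusted p 1.13e-06) and by 1.06 in N1-AcSpd cells. Cxadr overlaps Btg3 on the opposite strand, which had 11171 UMIs against its 12703, so its value is uncertain. Lsr, the angulin of three-cell contacts, was lower by −0.30 in N1-AcSpd cells (edgeR adjusted p 0.0144) and by −0.22 in untreated cells, where it did not pass (0.0599). The call in N1-AcSpd cells was lost with library totals (0.133), with only the compared groups (0.0595) and in 4 of 20 fits that left out a library or a mouse, whereas the untreated value passed with mouse as a block (0.0122), with only the compared groups (0.0396), with DESeq2 size factors (0.0415) and by DESeq2 (0.0493). Its counts were within 0.778% of those of the antisense gene Gm4673.

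Among the 10 tested plaque scaffolds, 5 were lower and 3 higher in each condition. Amotl2, an angiomotin-family scaffold, was lower by −0.55 and −1.07 (edgeR adjusted p 0.0456 and 0.000816), although the first call was lost in 11 of 20 fits that left out a library or a mouse, with library totals (adjusted p 0.118) and with no filter on low counts (0.0635). Afdn, which encodes afadin between nectins and actin, was higher by 0.29 and 0.16 (edgeR adjusted p 0.000523 and 0.0254). Its call in N1-AcSpd cells was lost in 7 of 20 such fits, and it overlaps Gm3355 on the opposite strand, with 41031 UMIs against 56002 for Afdn, so its value is uncertain.

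The 13 tested polarity genes had 6 lower and 1 higher in untreated cells and 5 lower and 0 higher in N1-AcSpd cells (edgeR). In each condition 7 of 13 had an unadjusted p under 0.05, beside 7742 and 7957 of all 19049 tested genes. Crb3, the epithelial Crumbs protein of the apical membrane, was the most strongly lowered of the called genes averaging at least 50 counts, by −0.82 and −0.91 (edgeR adjusted p 6.37e-06 and 2.6e-06). It overlaps Slc25a23 on the opposite strand, which held 1467 UMIs against its 3554. Pard6a, a partner of atypical protein kinase C, was the gene called higher, by 0.39 in untreated cells (adjusted p 0.0458), and the call was lost in 15 of 20 fits that left out a library or a mouse.

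Of the 13 tested regulators 8 were lower and 3 higher in untreated cells, and 7 lower and 3 higher in N1-AcSpd cells. Epcam, which binds and stabilises claudins, was higher in HFSCs, at 34.4 against 18.2 CPM in untreated cells (0.92, SE 0.11, edgeR adjusted p 2.2e-05) and by 1.17 in N1-AcSpd cells (adjusted p 2.56e-06). Grhl3, a Grainyhead transcription factor of epidermal barrier formation, had the largest difference among the regulators, at 1.19 against 6.46 CPM (−2.43, SE 0.18, edgeR adjusted p 8.04e-07) and by −2.53 in N1-AcSpd cells. Grhl1 and Grhl2, named here after their values were seen, were lower as well, by −1.57 and −0.38 in untreated cells (edgeR adjusted p 2.81e-06 and 0.000414). Grhl2 is uncertain, since the antisense gene Gm16136 overlaps it and held 6517 UMIs against its 5407.

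Of the 9 tested adherens junction genes 4 were lower and 1 higher in untreated cells, and 6 lower and 1 higher in N1-AcSpd cells. Cdh1, the E-cadherin of epithelial contacts, was at 33.1 against 49.4 CPM (−0.58, SE 0.072, edgeR adjusted p 3.84e-05) and lower by −0.76 in N1-AcSpd cells (adjusted p 3.04e-06). Nectin4 was lower by −1.92 and −1.91 (edgeR adjusted p 1.08e-05 and 8.79e-06). Ctnnb1, which encodes β-catenin, was the gene called higher, by 0.27 and 0.32 (edgeR adjusted p 0.000812 and 0.000195). Its counts were within 0.334% of those of Ulk4, so that its tags are uncertain.

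Under treatment edgeR called 0 of the 54 other junction genes in either population. In progenitors 13 of them had an unadjusted p under 0.05, as had 2593 of all 19049 tested genes. In HFSCs 11 had, as had 2505 of all tested genes. In progenitors DESeq2 called 558 genes in all. It called 4 of the 54 there, named here after their values were seen: Grhl3 (log2 fold change 0.65, adjusted p 0.00852), Patj (0.30, adjusted p 0.0183), Ctnnb1 (−0.22, adjusted p 0.0030) and Ybx3 (−0.10, adjusted p 0.0316). With mouse as a block, edgeR called Ctnnb1 alone of the 54 (−0.22, adjusted p 0.0409), and 349 genes in all. Ctnnb1 is uncertain, since Ulk4 overlaps it on the opposite strand and held 13504 UMIs against its 13485. In HFSCs DESeq2 called 2 of the 54, Ctnnd1 (−0.27, adjusted p 0.0143) and Afdn (−0.15, adjusted p 0.0344), and 423 genes in all. Ctnnd1 overlaps Gm28635 on the same strand, which held 19925 UMIs against its 6604. For the interaction edgeR called 0 of the 54, with 1 at an unadjusted p under 0.05.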

How the data were processed

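Per the labels and the study's methods, the authors separated the reads with FLEXBAR, placed the second read on mm10 with kallisto (0.45.0 in the submitters' processing notes), used bedtools to assign them to genes and counted distinct UMIs in R. The deposited values are these counts, not normalized. The 156050 empty cells were read as 0, and 62 identifiers without a symbol held 0.116% of counts. Symbols and positions came from GENCODE on GRCm38, promoters from RefSeq. Groups came from the labels, whose mouse entry makes equal replicate numbers 1 animal. Deviations from the group means were correlated between libraries of the same mouse with a mean r of 0.0133 (−0.0689 to 0.0858, 24 pairs), near 0. Several genes on opposite strands had near-identical counts, so tags of overlapping genes cannot be told apart by strand, and no library of a group was a copy of another.

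Genes averaging at least 5 counts (19049) were tested in 1 edgeR 4.0.16 quasi-likelihood fit of all 16 libraries (R 4.3.3, TMM scaling, 1 mean per group, Benjamini-Hochberg over all tested genes, adjusted p under 0.05), checked on simulated data. SE is the size of the log2 fold change over the square root of F. DESeq2 1.42.0, the study's tool, was an alternative, as were other scalings, filters, mouse as a block, only the compared groups, and leaving out each library or mouse. Exact tests used SciPy 1.17.1. The named genes were all members, in each list and cell type comparison the called gene with the largest increase and decrease at a mean count of at least 50, and Marveld2, F11r, Cdh1 and Epcam. Some results under this rule are not reported here. Members and lists were chosen with earlier results of these data known.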

Additional observations from a re-analysis of the deposited data

Results flagged for a closer look

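Of 32 groups of 4 libraries checked for the 7 tested members and the Cldn4 to Cldn1 ratio, 2 had 1 library far from the other 3, where chance gives about 1 in 20 groups. In N1-AcSpd progenitors Ocln stood at 1.53 CPM in mouse 1 and between 1.97 and 1.99 CPM in the other mice, on 37 to 56 UMIs a library. In N1-AcSpd HFSCs Tjp3 stood at 1.88 CPM in mouse 4 and between 2.08 and 2.11 CPM in the other mice, on 32 to 56 UMIs a library. Both groups varied less than counting alone gives, with a coefficient of variation of 12.1% for Ocln against 14.4% from counting, and of 5.22% for Tjp3 against 15.9%.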

How the results depend on the processing

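Of 234 refits with all 16 libraries of the 39 called values of the members and of the genes under the naming rule, 10 lost the call and 0 changed sign, and of 39 refits with only the compared groups 3 lost it and 0 changed sign. Library totals for scaling shifted the median of all genes to 0.14 and 0.11 in the cell type comparisons, with 4861 genes higher and 1762 lower in untreated cells (3059 and 3064 with TMM) and 4792 and 1904 in N1-AcSpd cells (3147 and 3199). Under it Tjp3 changed sign, to 0.10 and 0.076, as did Cldn1 in progenitors under treatment, to 0.0041. None of these 3 was called. With mouse as a block, 1 other junction gene was called in progenitors under treatment, and by DESeq2 4 in progenitors and 2 in HFSCs. Over all genes DESeq2 called 558 in progenitors and 423 in HFSCs, and the cause was not tested. The replicate block moved the calls of Cldn12 in untreated cells (gained), Lsr (gained, −0.22) and Pard6a (lost, 0.39), and counts over all genes under treatment from 117 to 349 and from 62 to 152. Leaving out 1 library or mouse gave 2 to 6 called members in untreated cells, the 2 without mouse 2, and 0 to 1 other junction genes in progenitors under treatment. Values that changed sign there were uncalled: treatment in progenitors for Cldn1 (−0.064 to 0.052), Tjp1 (−0.15 to 0.046), Tjp3 (−0.12 to 0.11) and Cgn (−0.34 to 0.015), treatment in HFSCs for Ocln (−0.27 to 0.43) and Tjp3 (−0.14 to 0.12), the untreated cell type value of Tjp3 (−0.16 to 0.14), and the interaction for Cgn (−0.37 to 0.11), Ocln (−0.59 to 0.019) and Tjp3 (−0.21 to 0.15). The Cldn4 to Cldn1 ratio kept its direction in all 12 such runs of each comparison. Low counts limit Ocln, Cgn, Cldn8 and Cldn7 in HFSCs, where libraries held at most 16 tags of each.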
